A study of Mus musculus with 21 samples.

Results

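The small subunit of the cytosolic ribosome carries, in mammals, a set of proteins encoded by the Rps genes and Rpsa. The genes described here were the protein-coding genes of the count table with the symbol Rps followed by digits (with a letter allowed) and Rpsa, without pseudogenes, the Rps6k kinases and Rps19bp1, kept when they had at least 10 counts in at least 11 of 21 libraries. This gave 31 genes of the 55487 in the table, and all 31 passed the minimum and were tested. The libraries were poly-A RNA of the hippocampus of male wild type C57BL/6 mice at 10 weeks, 1 library per mouse. Of these mice, 9 had undergone maternal separation (MS), in which whole nests were kept from the dam for 4 hours a day from postnatal day 10 to 17 and, per the study's methods, part of the nesting material was taken away, and 12 had standard rearing (SR). The rearing conditions were thus assigned to nests and not to single mice, and the labels do not name the nests. The animal numbers form 7 runs of 3 in a row, and each mouse is named by its run, called a set: sets A, B and C were MS and sets D, E, F and G were SR. One MS library, A2, stood apart in the principal component analysis and was left out, so that the comparison held 8 MS and 12 SR mice. The study also removed 1 outlier found by such an analysis, but did not name it, and whether that was A2 is not known. It states groups of 9 MS and 12 SR mice, as many as have libraries here, so its outlier may not be among these.

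Ribosomal proteins are made in the cytoplasm, imported into the nucleolus and joined to ribosomal RNA. The small subunit reads the mRNA: its head, body and platform hold the path of the message and the decoding site, while the large subunit joins amino acids. Ribosomal protein mRNAs commonly start with a run of pyrimidines, the 5′ terminal oligopyrimidine (TOP) motif, through which the mTOR pathway and the protein LARP1 control their translation. Neurons also hold ribosomes in dendrites and axons. In bulk tissue, a different number of cells of a type and a different amount of RNA per cell cannot be told apart.

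The sequences around the annotated transcription start are shown for 8 of the genes whose values are described in the text, 4 with fold changes among the largest 7 (Rps27, Rps21, Rps12, Rps9) and 4 with small ones. Each is 50 bases of the transcript's strand from RefSeq (GRCm38.p6), 30 before and 20 after the start, and capitals mark the longest run of C and T that touches the 5 bases on either side of it.
Rps27, chr3:90213629-90213678, minus strand: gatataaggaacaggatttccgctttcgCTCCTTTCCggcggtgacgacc
Rps21, chr2:180257349-180257398, plus strand: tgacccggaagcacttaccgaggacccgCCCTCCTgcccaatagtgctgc
Rps12, chr10:23787190-23787239, minus strand: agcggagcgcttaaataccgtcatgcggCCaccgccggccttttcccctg
Rps9, chr7:3704011-3704060, plus strand: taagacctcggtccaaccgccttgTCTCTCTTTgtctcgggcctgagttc
Rps6, chr4:86857348-86857397, minus strand: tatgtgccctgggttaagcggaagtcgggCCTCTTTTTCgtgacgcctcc
Rps2, chr17:24720033-24720082, plus strand: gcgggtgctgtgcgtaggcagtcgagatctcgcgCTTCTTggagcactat
Rps7, chr12:28635934-28635983, minus strand: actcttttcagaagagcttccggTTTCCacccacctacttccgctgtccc
Rps10, chr17:27635225-27635274, minus strand: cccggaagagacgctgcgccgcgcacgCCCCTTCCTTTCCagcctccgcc

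A run of at least 6 pyrimidines, read on the transcript's strand only, touched these bases in 12 of the 23 small subunit genes that matched a window (52.2%). It did so in 17 of 37 large subunit genes (45.9%) and in 20.1% of all 27025 genes with a RefSeq window, which were not limited to the count table. The window depends on where the start is annotated. The median log2 fold change, MS against SR, was 0.13 for the genes with the run and 0.16 for those without it. Among the genes with the largest fold changes, Rps21 had a run of 7 bases, Rps27 of 9 and Rps12 of 2, and Rps29 had no window. Among those with the smallest, Rps7 had a run of 5 bases and Rps10 of 13. A link between the run and the fold change was not tested.

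Every small subunit gene had a higher mean level in MS than in SR mice, by small amounts. The log2 fold changes lay between 0.07 and 0.42, that is between 1.05 and 1.34-fold, and their median was 0.15. Over all 18146 genes tested the median was 0.00084 and 50.3% of genes were higher in MS. In the edgeR quasi-likelihood fit, with p-values adjusted over all genes (Benjamini-Hochberg), 0 of the 31 passed the threshold of 0.05, where 0.011% of all genes passed (2 genes), and the adjusted p-values of the 31 genes lay between 0.111 and 0.861. At an unadjusted p under 0.05 by edgeR, 20 of the 31 genes were higher in MS (64.5%) and 0 lower, against 6.62% of all genes tested that were higher. With DESeq2, whose adjusted p was available for 15351 genes, 2 of the 31 genes passed, Rps27 and Rps12, where 0.495% of all genes passed as higher in MS.

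**Figure D1:**
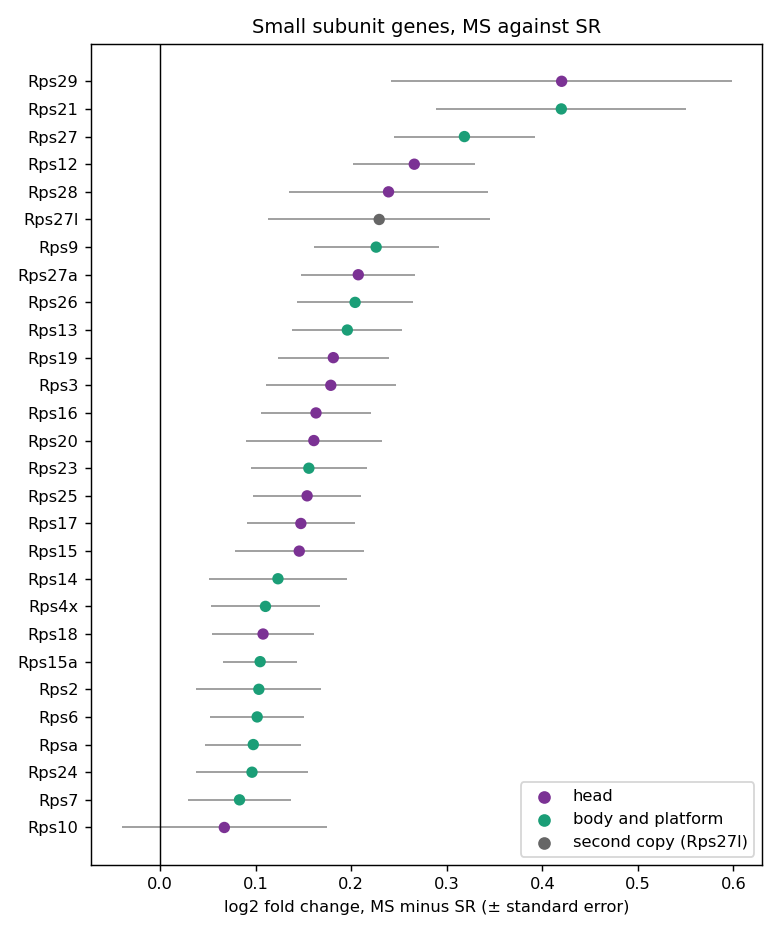
Log2 fold change of 28 of the 31 small subunit genes, MS minus SR, with its standard error, from the edgeR fit of 8 MS and 12 SR mice; the colour gives the place of the protein in the subunit. All points lie above 0, from 0.07 for Rps10 to 0.42 for Rps29, and the standard errors of Rps29 and Rps21 are the widest.

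The 4 genes with the largest fold changes code for 4 small proteins of the subunit: Rps12 and the zinc-binding Rps29 of the head, and Rps21 and the zinc finger protein Rps27 of the body and platform. Rps27 (ENSMUSG00000090733, chr3:90212522-90213651) had 21.8 CPM (counts scaled to the normalized total of the library) in the lowest MS mouse, 28.7 in the median and 36.4 in the highest, and 19.5, 22.7 and 26.2 in SR. The groups overlapped, with 6 of 8 MS mice above the highest SR mouse and C3 alone among MS mice below the SR median. The 8 MS mice averaged 28.9 ± 4.52 CPM and the 12 SR mice 23.2 ± 2.12, where the errors are SDs here and at all later means. The log2 fold change was 0.32 ± 0.07 (SE), with an adjusted p of 0.111 by edgeR and 0.0217 by DESeq2.

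Rps12 (ENSMUSG00000061983, chr10:23785183-23787275) lay at 68.2, 91.6 and 112 CPM in the lowest, median and highest MS mice, and at 68.9, 76.1 and 83.9 CPM in SR. Again 6 of 8 MS mice lay above the highest SR mouse, while C3 lay below the lowest. Its mean level was 91.8 ± 14.0 CPM in MS and 76.4 ± 4.00 in SR (log2 fold change 0.27 ± 0.06 SE, adjusted p 0.131 by edgeR and 0.0268 by DESeq2).

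Rps21 (ENSMUSG00000039001, chr2:180257377-180258445) ranged from 16.3 to 32.6 CPM in MS (median 27.2) and from 14.2 to 30.2 in SR (median 18.2). Here the SR mouse E3 lay among the highest MS mice, so that 2 of 8 MS mice exceeded all SR mice. The log2 fold change of 0.42 ± 0.13 (SE) had an adjusted p of 0.226 by edgeR. Rps29 (ENSMUSG00000034892, chr12:69157722-69159186) had the widest spread of the 31 genes, with 6.47 to 19.4 CPM in MS (median 14.0) and 6.83 to 15.8 in SR (median 9.86). Its highest mice were A1 and A3 of the MS group and its lowest was C3 of the same group. The log2 fold change was 0.42 ± 0.18 (SE), adjusted p 0.368 by edgeR.

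Among the 4 genes with the smallest fold changes were Rps7, a protein of the body, and Rps10 of the head, a target of ubiquitination when ribosomes stall. Rps7 (chr12:28630854-28635953) ranged from 146 to 214 CPM in MS (median 161) and from 147 to 175 in SR (median 154). Its top value belonged to C1, the only MS mouse above all SR mice, and its log2 fold change was 0.08 ± 0.05 (SE, adjusted p 0.576 by edgeR), or 0.020 without C1.

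Rps10 (chr17:27630418-27636669) did not follow the other genes across the mice. It had 3.24 to 5.18 CPM in MS (median 3.96) and 3.00 to 5.21 in SR (median 4.02), so that the MS median was below the SR median while the MS mean was above it. None of the 8 MS mice was above the highest SR mouse, and the mouse C3, lowest in MS for 29 of the 31 genes, was above the SR mean for Rps10. The log2 fold change of 0.07 ± 0.11 (SE) had an adjusted p of 0.861 by edgeR. Without mice C1 and C3 it was -0.013 and without set C -0.030.

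**Figure D2:**
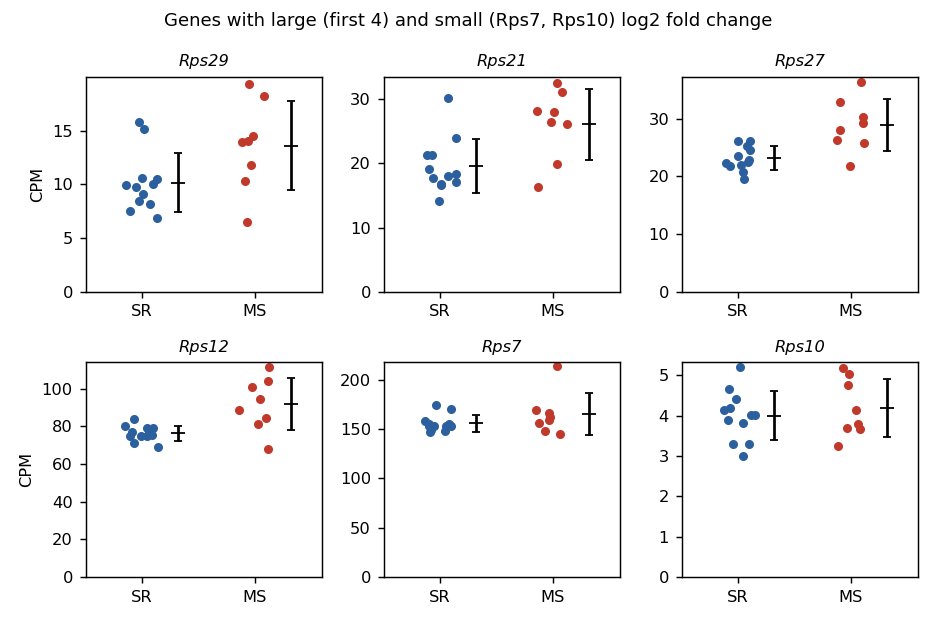
CPM of the 4 small subunit genes with the largest log2 fold change (Rps29, Rps21, Rps27, Rps12) and of Rps7 and Rps10, which are among the 4 with the smallest; each point is a mouse (12 SR, 8 MS) and the bar gives the mean and SD. For Rps27 and Rps12, 6 of 8 MS mice lie above all SR mice, and for Rps7 1 MS mouse does.

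The head list held 14 genes, all higher in MS (median log2 fold change 0.16), and 12 of 14 had an unadjusted p under 0.05 by edgeR. The list of the body and platform held 16, all higher, with a median of 0.11 and 8 of 16 at that threshold. The difference between both lists was not tested. In the head, Rps28, at the exit of the mRNA path, had 17.0 ± 3.32 CPM in MS and 14.4 ± 2.03 in SR (log2 fold change 0.24). Rps27a, made as a fusion with ubiquitin, had 82.7 ± 10.3 against 71.7 ± 5.29 CPM (0.21), and 5 of 8 MS mice lay above all SR mice. Rps3, at the entry of the mRNA path, reached 265 CPM in C1 and had 155 in C3, against 158 to 185 CPM in SR. Its log2 fold change was 0.18, and 0.10 without C1.

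In the body, Rps9 (chr7:3703993-3706897), which bears on the accuracy of decoding, had 91.2, 123 and 154 CPM in the lowest, median and highest MS mice and 94.3, 106 and 116 in SR. It placed 6 of 8 MS mice above all SR mice, and its log2 fold change was 0.23 ± 0.07 (SE, adjusted p 0.189 by edgeR). Rps26, which contacts the mRNA near the exit, also had 6 of 8 MS mice above all SR mice (55.9 ± 7.08 against 48.5 ± 3.44 CPM). Rps6, the subunit's main target of S6 kinase, had 189 ± 24.1 CPM in MS and 176 ± 4.99 in SR (log2 fold change 0.10), and the C1 value of 247 CPM stood far above the other 7 MS mice. Without C1 the log2 fold change of Rps6 was 0.036. Rps15a had the most even values in MS (89.3 ± 4.83 CPM against 83.1 ± 4.97 in SR) and was the gene with an MS standard deviation below that of SR on the CPM scale. Rps4x, the X-linked copy of Rps4, had 139.7, 154 and 218 CPM in the lowest, median and highest MS mice and 136, 150.5 and 158 in SR. Only 3 of 8 MS mice were above the SR range, and the log2 fold change was 0.11 ± 0.06 (SE, adjusted p 0.472 by edgeR), or 0.034 without C1. Rps4l, its relative annotated as a transcribed processed pseudogene, had 13.5, 19.5 and 24.9 CPM in the lowest, median and highest MS mice and 12.9, 21.9 and 26.0 in SR (log2 fold change -0.03).

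Genes of Diamond-Blackfan anemia, an inherited failure of red cell production caused by loss of 1 copy of a ribosomal protein gene, made up 11 of the 31. All 11 were higher in MS, as were all 31, and 8 of the 11 had an unadjusted p under 0.05 by edgeR, against 20 of the 31. The median log2 fold change was 0.16 for the 11 genes and 0.15 for the 31. Among the 11 genes Rps19, the gene most often mutated in that disease, had 64.7 ± 7.93 CPM in MS and 57.1 ± 4.04 in SR (log2 fold change 0.18). Proteins of the subunit whose symbols lay outside the rule showed like values: Fau, which gives the protein S30, had 65.2 ± 9.75 against 57.6 ± 4.43 CPM (log2 fold change 0.18, edgeR adjusted p 0.315), Rack1, a scaffold on the head, had 0.10 and Rps3a1 had 236 ± 35.8 against 220 ± 5.67 CPM (0.10, edgeR adjusted p 0.490).

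The level per transcript length differed far more between the genes than between the groups. In SR mice, and per 1000 bases of transcript, Rps14 (369 ± 18.6 CPM), Rps2 (292 ± 17.5) and Rps15 (263 ± 16.2) were the highest, and Rps10 (6.20 ± 0.951), Rps27l (7.55 ± 1.27) and Rps20 (9.97 ± 0.769) the lowest. The transcript of Rps20 used for this was 3706 bases long, against a median of 637 over the 31 genes. Rps14, a platform protein, had 175, 236 and 337 CPM in the lowest, median and highest MS mice and 207, 220 and 236 in SR (log2 fold change 0.12 ± 0.07 SE, edgeR adjusted p 0.534). Rps2, at the mRNA entry, had 248, 312 and 423 in MS and 263, 289 and 325 in SR (0.10 ± 0.07 SE, edgeR adjusted p 0.565). Rps15, of the head, had 102.4, 145 and 182 in MS and 119, 129.5 and 143.5 in SR (0.15 ± 0.07 SE, edgeR adjusted p 0.411). In all 3 the MS range enclosed the SR range, with C3 at its bottom and C1 at its top. Without C1 the log2 fold changes were 0.037 for Rps14, 0.029 for Rps2 and 0.092 for Rps15. Rps27l, the second copy of Rps27 and a p53 target, had 3.07, 4.33 and 5.87 CPM in MS and 2.71, 3.78 and 4.65 in SR (log2 fold change 0.23 ± 0.12 SE, edgeR adjusted p 0.459). Rps20 had 27.7, 42.1 and 46.9 CPM in MS and 32.8, 36.6 and 41.4 in SR (0.16 ± 0.07 SE, edgeR adjusted p 0.382), with 6 of 8 MS mice above all SR mice.

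Reads of several of these genes can match other genes too. Windows of 100 bases along each transcript were compared with other genes' transcripts. In Rps27, 98.4% of the windows were shared (with Rps27rt), and in Rps6 83.6% (with the pseudogene Rps6-ps4). The share was 77.6% in Rps13, 71.1% in Rps12 (17 genes), 69.1% in Rps27a and 66.3% in Rps7. It was 66.1% in Rps10 (with the readthrough gene RPS10-NUDT3), 64.7% in Rps2 (36 genes) and lower in the others. Rps21, Rps27l and Rps3 shared no window. How reads with several matches, or reads in overlapping genes such as Rps10 and RPS10-NUDT3, were counted is not given in the sources used here. The levels of Rps10 and of the genes with many shared windows are thus uncertain. Of 18 tested pseudogenes of this family, 15 were higher in MS with a median log2 fold change of 0.16, and 3 had an unadjusted p under 0.05 by edgeR: Rps12-ps3 (0.79, annotated as protein-coding), Rps27a-ps2 (0.40) and Rps26-ps1 (0.38), each with mean levels between 0.588 and 1.42 CPM. Rps6-ps4, the most abundant of them, had 72.2 ± 11.5 CPM in MS and 70.5 ± 3.26 in SR.

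The MS mice were far less alike than the SR mice. As the mean over the 31 genes of log2 CPM minus the gene's SR mean, the MS mice lay at 0.25 (A1), 0.27 (A3), 0.08 (B1), 0.17 (B2), 0.19 (B3), 0.41 (C1), 0.11 (C2) and -0.19 (C3). The SR mice lay between -0.08 (D1) and 0.11 (F3). Thus 6 of 8 MS mice were above the highest SR mouse, B1 was within the SR range and C3 was below all other mice. The library left out, A2, lay at 0.21.

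C1 and C3, which belong to the same set of animal numbers, marked both ends. C1 was the highest of the 20 mice for 23 of the 31 genes and C3 the lowest for 21. C1 lay above all SR mice in 25 genes, and C3 lay below the SR median in 29. For the whole subunit, the 31 genes took 0.404% of the counts in C1 and 0.260% in C3, against 0.273% to 0.309% in SR. Their mean share was 0.323% ± 0.0412 for MS mice (SD, n = 8) and 0.290% ± 0.0108 for SR mice (SD, n = 12).

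**Figure D3:**
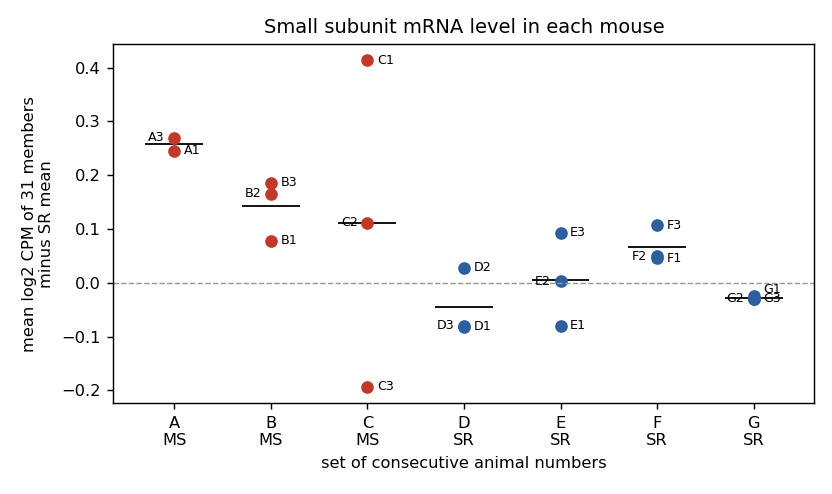
Mean over the 31 small subunit genes of log2 CPM minus the gene's SR mean, for each mouse used (red MS, blue SR), by set of animal numbers; the short lines are the means of the sets. Set C spans from -0.19 to 0.41, more than the whole SR group, and the means of sets A, B and C (0.26, 0.14 and 0.11) lie above those of D to G (-0.04, 0.01, 0.07 and -0.03).

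The spread differed between the groups as well as the mean. The median coefficient of variation of the 31 genes was 14.3% in MS and 6.29% in SR. On the log2 scale the standard deviation in MS was larger than in SR for 30 of the 31 genes, with a median ratio of 2.20, where 67.3% of all genes had the larger value in MS and the median ratio was 1.17. Without C1 and C3 the ratio was 0.962 for the 31 genes and 1.04 for all genes. These 2 mice were picked as the extremes of MS for the same genes, so that a smaller ratio without them follows from the choice. In all, 15 of the 31 genes had at least 4 of 8 MS mice above the highest SR mouse, against 4.48% of all genes tested, while 0 of the 31 had groups that did not overlap (1 gene in all did).

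**Figure D4:**
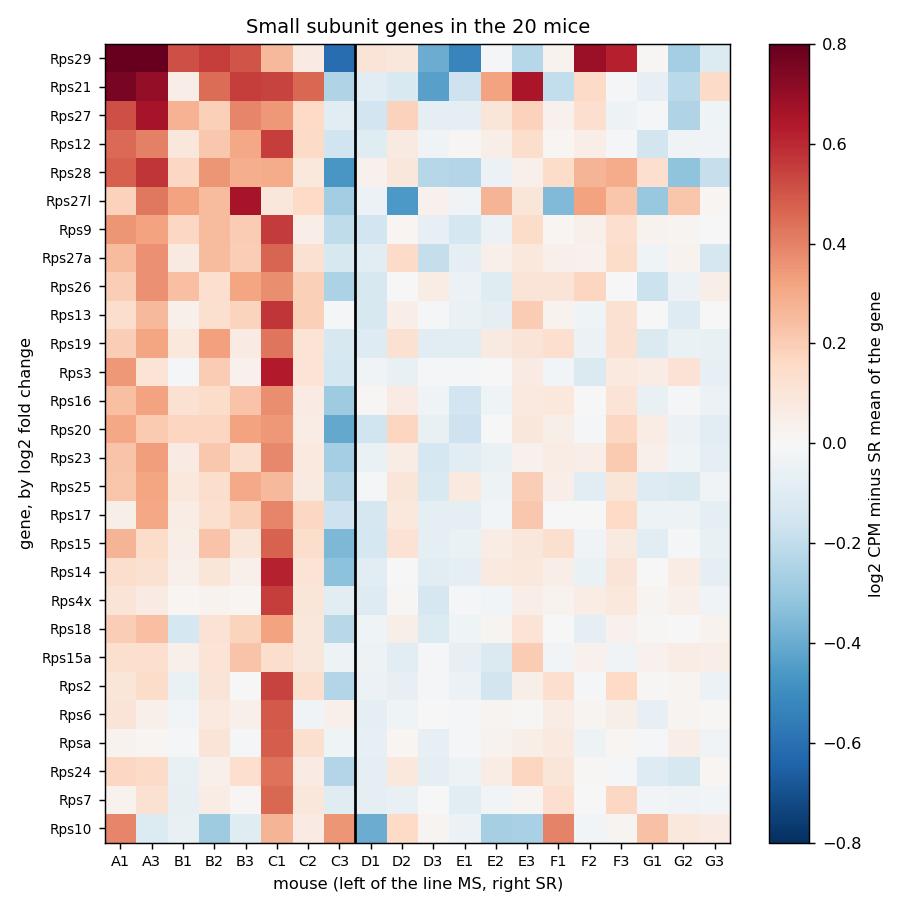
Log2 CPM of 28 of the 31 small subunit genes (rows, ordered by log2 fold change) in each of the 20 mice (columns) minus the gene's SR mean; red is above and blue below it, and the line parts MS from SR. The C1 column is red throughout and the C3 column is blue apart from few genes, Rps10 among them.

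The comparison held its direction and changed its calls with the mice that were used. Without C3, the median log2 fold change was 0.20 and 7 of the 31 genes passed the edgeR threshold (adjusted p under 0.05), where 0.525% of all genes passed as higher in MS: Rps12, Rps16, Rps20, Rps26, Rps27, Rps27a and Rps9. Without C1 the median was 0.11 with 0 genes called (0.011% of all genes) and 13 at an unadjusted p under 0.05 (6.14% of all genes). Without A3 these values were 0.13, 0 (0.0% of all genes) and 12 (4.89%). All shares of all genes in this paragraph count only genes that were higher in MS. Without both C1 and C3 the median was 0.16 with 5 genes called, against 0.359% of all genes, and without C2, 1 gene was called (Rps27), against 0.285%. With the whole set C left out, 11 were called, against 1.14% of all genes, and 30 of the 31 genes were higher in MS. Calls thus also became more frequent over all genes in these fits, from 2 genes as reported to 109 in either direction without C3, 109 without C2, 72 without C1 and C3, and 340 without set C.

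The animal numbers fell into a lower range (sets A, B, D, E and F) and a higher one (C and G), and each held both conditions. Within the lower range the median log2 fold change was 0.14, all 31 genes were higher in MS, and 22 had an unadjusted p under 0.05, where 9.53% of all genes had one and were higher. There, 5 genes passed the edgeR threshold (Rps12, Rps16, Rps26, Rps27 and Rps9), where 0.864% of all genes passed as higher and 230 genes passed in either direction. Within the higher range, with 3 mice per group, the median was 0.19 and all 31 were higher, but 1 had an unadjusted p under 0.05, near the 2.34% of all genes that had one and were higher, and 0 passed, as did 0 of all genes. The test of the difference between the ranges had 0 of the 31 genes at an unadjusted p under 0.05. Over all genes the share was 8.67%, in either direction, and 0 passed by adjusted p. The smallest adjusted p of the 31 genes was 0.626 by edgeR. With 3 mice per group in the higher range, this test cannot show that the ranges were alike. With counts summed within sets, so that a set and not a mouse was the unit, the median was 0.18. There, 25 genes had an unadjusted p under 0.05, where 4.98% of all genes had one and were higher in MS, and 0 passed. The means of all 3 MS sets were above those of all 4 SR sets for 16 of the 31 genes, against 5.63% of all genes.

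Short transcripts had the larger fold changes. The 8 genes with transcripts under 500 bases had a median of 0.25 on the log2 scale, and the other 23 had 0.12. Over the 31 genes, Spearman's rho of the fold change was -0.447 with transcript length and -0.576 with the SR mean level (in CPM). These values are descriptions: the genes share their libraries, and the short genes were also low in CPM. Over all genes without the members, the median log2 fold change was 0.016 under 700 bases, 0.019 from 700 to 1500, -0.0016 from 1500 to 3000 and -0.019 over 3000 bases. The median of the small subunit genes was 0.15. The length classes were not matched to these genes in level or gene type, and the part of length was not tested by them.

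**Figure D5:**
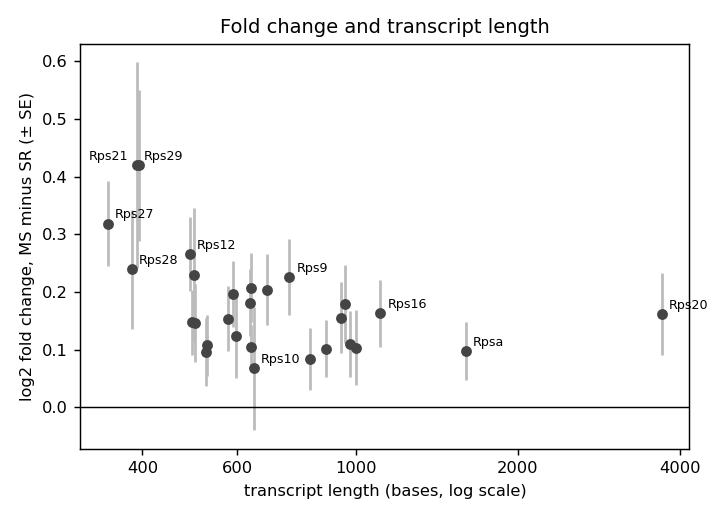
Log2 fold change, MS minus SR, with its standard error, against transcript length (bases, log axis) for 28 of the 31 small subunit genes. The shortest transcripts, Rps27, Rps28, Rps29 and Rps21, lie between 0.24 and 0.42, and most transcripts over 700 bases lie below 0.20.

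A length trend of each library moved with the level of these genes. It was measured as Spearman's correlation of log2 CPM with transcript length over all genes but the members. It was lowest in C1 (0.183), the mouse with the highest small subunit level, and highest in C3 (0.218), the mouse with the lowest. The trend was 0.205 ± 0.0108 in MS and 0.209 ± 0.0039 in SR, with 0.201 to 0.213 in SR mice. With this trend as a term, the median log2 fold change of the 31 genes was 0.09 and all 31 were higher. Of these, 13 had an unadjusted p under 0.05, where 6.86% of all genes had one and were higher, and 0 passed by edgeR. Any further part of the length trend was not tested.

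Markers of other tissue differed between mice. Choroid plexus markers were higher in MS for 10 of 10 genes (median log2 fold change 0.86, 0 with an unadjusted p under 0.05 by edgeR), with summed levels of 171 to 6453 CPM in MS and 175 to 7105 in SR, and all 10 passed the filter on low counts. Striatal markers were higher for 8 of 8 (median 0.47, summed 86.6 to 699.6 CPM in MS and 92.2 to 437 in SR). Markers of the dentate gyrus (1 of 6 higher, summed 288 to 547 CPM in MS and 274 to 572 in SR) and of CA pyramidal neurons (2 of 6 higher, summed 475 to 688 and 468 to 691) were present in all mice used. In C1, the summed levels of microglia (356 CPM), oligodendrocyte (7964 CPM) and red cell markers (450 CPM) were the highest of all mice used, and C3 had the lowest red cell level (138 CPM). With the choroid plexus level as a term the median of the 31 genes was 0.14. Of the 31, 16 had an unadjusted p under 0.05 by edgeR, where 5.09% of all genes had one and were higher. The part of the other markers was not tested. Total counts of the libraries used lay between 17276810 and 26450808.

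The counts for other parts of the ribosome and for its makers carry no test of a difference from the small subunit. All 49 genes of the large subunit were higher in MS (median log2 fold change 0.13, 28 at an unadjusted p under 0.05 by edgeR, 57.1%), and their share of the counts was again highest in C1 (0.643%). The 2 largest by DESeq2's threshold were the stalk proteins Rplp2 (60.7 ± 8.82 against 49.0 ± 4.47 CPM, 0.31) and Rplp1 (182 ± 27.7 against 150.3 ± 14.1 CPM, 0.28). Of 29 genes taken by the symbol Mrps and digits alone, to stand for the mitochondrial small subunit, 20 were higher in MS (median 0.05). The symbol does not assure that each codes for a protein of that subunit. In this list, 8 were higher and 1 lower at an unadjusted p under 0.05 by edgeR, against 1202 higher and 893 lower of all 18146 genes. Mrps6 had the largest value there (13.2 ± 1.25 against 10.6 ± 1.13 CPM, 0.31, DESeq2 adjusted p 0.0138), in a gene that overlaps Slc5a3, so that their reads are uncertain.

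Factors that assemble the small subunit did not share its direction: of 42, 22 were higher and 20 lower (median 0.01). At an unadjusted p under 0.05 by edgeR, 1 was higher and 5 lower. Of all 18146 genes tested, 1202 were higher and 893 lower at that threshold. Imp3, a nucleolar processing factor, had 17.3 ± 2.99 CPM in MS and 14.7 ± 1.63 in SR (0.24), while Utp15 (28.05 ± 1.42 against 30.6 ± 1.26 CPM, -0.13) and Tsr1 (34.9 ± 3.22 against 37.7 ± 2.64 CPM, -0.11) had lower means in MS. Of 22 initiation factors, 15 were higher (median 0.03), and Eif1, which holds the subunit in scanning form, was the 1 with an unadjusted p under 0.05 (203 ± 14.9 against 192 ± 6.08 CPM, 0.08). Of 19 genes that control ribosomal protein mRNAs or modify the subunit, 11 were higher (median 0.03). Among these Rheb, the GTPase that activates mTOR, had 76.5 ± 5.08 CPM in MS and 69.1 ± 2.77 in SR (0.15, adjusted p 0.134 by edgeR and 0.0294 by DESeq2), Larp1 had 196 ± 5.97 against 196 ± 6.22 CPM (-0.0013), and Mtor had -0.05.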

How the data were processed

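The authors prepared directional poly-A libraries, sequenced them as paired-end reads, aligned them to GRCm38 with STAR 2.7.3a and counted them per Ensembl gene with featureCounts. The deposited values are raw counts, 1 column per library. Strand setting and the treatment of reads with several matches or in overlapping genes are not given in the sources used here. Samples were grouped by the rearing in their labels. Nothing in the labels says which mice shared a nest, so p-values treat mice as independent.

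Symbols, positions, biotypes and lengths (median of protein-coding transcripts) are those of GENCODE M21 (55227 of 55487 identifiers matched). Start windows are from RefSeq, and 23 of 31 members matched. Total counts were 17276810 to 30449055 per library. The library with the largest absolute first principal component (500 most variable genes, DESeq2 1.42.0) was left out. The remaining counts were filtered (filterByExpr, minimum count 10), normalized by TMM and tested with the robust quasi-likelihood test of edgeR 4.0.16 (R 4.3.3), with Benjamini-Hochberg adjustment over 18146 genes and a threshold of 0.05. Each standard error is the size of the fold change (log2) over the root of F. Log2 CPM used a prior count of 2. DESeq2's Wald test, other scalings and filters, added terms (length trend, choroid plexus level, range of animal numbers), a random block of sets (limma 3.58.1) and left-out mice and sets were the alternatives. The fit was tested on simulated data.

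The members and gene lists were chosen with earlier results of these data known. The genes named are the 4 members with the largest and the 4 with the smallest log2 fold change, the 3 highest and 3 lowest per length, those called by either tool, and the related copies Rps27l, Rps4x, Rps4l, Rps3a1 and Fau. Single values of 3 members, 2 of them under this rule, are not reported here, and the counts over the 31 genes include them. Other genes in the text (Rps28, Rps27a, Rps3, Rps9, Rps26, Rps6, Rps15a, Rps19, Rack1, Mtor and Larp1, and the pseudogenes) were added after their values were seen, for their role or spread. Of other lists, only some of the largest rises and falls at an unadjusted p under 0.05 by edgeR, and only some of the genes called, were named.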

Additional observations from a re-analysis of the deposited data

Results flagged for a closer look

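Among the 8 MS mice, 1 mouse lay far from the other 7 in 10 of the 30 genes examined here (28 small subunit genes, Rps3a1 and Fau), by Dixon's test at the 95% level (gap over range above 0.526). The 12 SR mice, and the genes outside this list, were not examined by this test. Chance flags about 1 in 20 groups, and since these genes move together within a mouse the flags are not independent. In 8 of them the mouse was C1, the highest, with 247 CPM for Rps6, 85.3 for Rps13, 337 for Rpsa, 214 for Rps7, 423 for Rps2, 337 for Rps14, 218 for Rps4x and 322 for Rps3a1. In the other 2 the mouse was C3, the lowest, with 27.7 CPM for Rps20 and 40.7 CPM for Rps26. The next MS mouse was at 188.5 CPM for Rps6, at 38.4 CPM for Rps20 and at 53.1 CPM for Rps26.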

How the results depend on the processing

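The median log2 fold change of the 31 genes stayed above 0 under all 41 alternatives, between 0.09 (length trend as a term) and 0.20 (without C3). The number of genes called by the adjusted p, 0 as reported, was 2 with DESeq2, 5 in the lower range of animal numbers alone and 5 without C1 and C3 (chosen after seeing the data). With single mice or sets left out it lay between 0 and 11. The number at an unadjusted p under 0.05, 20 as reported, was 1 in the higher range alone, 13 with the length trend as a term and 11 to 28 with mice or sets left out, with the low values without sets D (11), G (11) and A (12). With the random block of sets the number was 16 and the median 0.15. Of 492 values of named genes under alternatives, 476 kept side and sign, 14 newly passed and 2 changed sign. Some that kept their sign became small. The sizes of Rps2, Rps4x, Rps7 and Rps14 were over 3 times smaller without C1. Rps29 was 0.22 without set A and 0.078 in the higher range alone. Rps27l was 0.11 without set B and 0.012 in the higher range alone. With the length trend as a term, Rps2 was 0.013, Rps7 0.014 and Rps14 0.029. Both changes of sign were for Rps10: -0.030 without set C (0.185 without set B, the highest with mice or sets left out) and -0.013 without C1 and C3. The cause was not tested. No paired analysis was possible because no animal number is shared between the groups. Depth limits Rps10 and Rps27l most, with 56 to 129 counts per library for Rps27l.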
